A study of Mus musculus with 6 samples.

Results

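The transcription regulators of thermogenic fat were followed in the inguinal white adipose tissue (iWAT) of mice lacking ZIP13. They are the 10 genes Prdm16, Ppargc1a, Ppargc1b, Ebf2, Zfp516, Cebpb, Ppara, Esrra, Esrrg and Irf4, and every probe whose target is a RefSeq transcript of one of them was taken, which gave 14 of the 55681 probes on the array and 10 of the 21368 genes that could be named. The fat pads came from WT and Zip13-KO littermates aged 10 weeks, on the C57BL/6J background and backcrossed for 7 or more generations. In the Zip13-KO mice a Neo-cassette takes the place of exons 6 to 8 of the zinc transporter gene Slc39a13, which encodes ZIP13, in every cell of the body, and WT mice carry the intact gene. All animals received powdered food because the mutants have missing teeth, and the labels do not say which of the standard and high-fat diets these animals ate. RNA was hybridized to 6 one-colour Agilent arrays, on which a single labelled sample gives the brightness of each spot. The question was whether the genes that switch on heat production differ between the genotypes, and by how much.

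In brown and beige fat a small set of DNA-binding factors and their partners turns a fat cell into one that burns fuel. PRDM16, EBF2, C/EBP-beta and ZFP516 set cell identity, PPAR-alpha and the oestrogen-related receptors (ERRs) bind the genes of fatty acid oxidation and mitochondria, and the PGC-1 coactivators are recruited to these receptors when cold and adrenergic signals raise cAMP. IRF4 is a fasting- and cold-induced factor that works with PGC-1alpha at the Ucp1 gene.

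Probes for 5 of the 10 regulators were higher in Zip13-KO than in WT iWAT, and no probe was called lower (limma; 0 of the 14 were lower at an unadjusted p under 0.05). The coactivator genes Ppargc1a and Ppargc1b and the nuclear receptor genes Ppara, Esrra and Esrrg rose by 1.65-fold to 5.12-fold. The identity factors Prdm16, Ebf2, Cebpb and Zfp516, and Irf4, were not called, although the Prdm16, Ebf2 and Cebpb values of all 3 Zip13-KO arrays lay above those of all 3 WT arrays. A probe was called when its Benjamini-Hochberg adjusted p in limma was under 0.05 and its change exceeded 0.58 on the log2 scale (1.5-fold). By this rule 9 of the 14 probes (64.3%) were called higher, where 8.34% of the 33041 probes tested were called higher and 7.13% lower. The 9 were all the probes of the 5 genes. Of the 15302 genes tested, each taken by its brightest probe that passed the filter, 10% were called higher and 7.94% lower. The arrays of the genotypes did not overlap for 12 of the 14 probes, all with Zip13-KO above WT (85.7%), where 24.9% of all probes tested were separated in that direction and 25.1% in the other. The log2 fold change was above 0 for 13 of the 14, where it was above 0 for 47.6% of all probes. The median log2 fold change of the 14 probes was 1.04, and that of all probes tested was -0.02. All 14 probes were well above background on all 6 arrays, so none passed the filter through 1 genotype alone.

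These counts changed with the arrays used. When Zip13-KO replicate 1 or Zip13-KO replicate 2 was left out, 5 of the 14 probes were called, the genes with a called probe went from 5 to 3, and the share of all probes called higher went from 8.34% to 4.12% in both fits. The arrays shared 1 slide and 1 scan, but Zip13-KO replicates 2 and 3 were in another column of the slide than the other arrays. With the slide column as a term of the fit, the contrast rests on 1 Zip13-KO array, replicate 1, against the WT arrays, so the column and the smaller number of arrays cannot be told apart. None of the 14 probes was then called (limma; 10 were higher at an unadjusted p under 0.05, and the adjusted p of the 9 probes called otherwise lay between 0.0655 and 0.106), and 0.0121% of all probes were called higher. The log2 fold changes of those 9 probes ran from 0.74 to 2.32 in that fit, beside 0.73 to 2.36 with all arrays and no such term. Within that column, Zip13-KO replicate 1 lay above all 3 WT arrays for 12 of the 14 probes, the same number as Zip13-KO replicate 2 in the other column, while replicate 3 did so for 13. The labels do not say that each array holds the RNA of a separate mouse, so the p-values measure the spread between these samples. An exact two-sided permutation test of 3 against 3 arrays cannot give a p below 0.1, and it gave 0.1 for each of the 12 separated probes.

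The targeted gene was checked first. The Slc39a13 probe A_55_P1973668 read 11.29, 10.87 and 10.72 on the WT arrays and 6.76, 6.66 and 6.47 on the Zip13-KO arrays, as normalized log2 intensity. It fell by 4.33 on the log2 scale (SE 0.17, limma adjusted p = 0.00123), and each array matched its label. Its position relative to the deleted exons was not determined here. Pairs of arrays of 1 genotype correlated at 0.988 or above across probes. In the iWAT, the 9 adipocyte markers were above background on all arrays. The mammary epithelial markers were mixed. Krt18, Krt5 and Krt14 were above background on all arrays, and Epcam on the 3 WT arrays alone. Krt8 was above it on 1 WT and 1 Zip13-KO array, and Elf5, Wap, Csn2 and Csn3 on none.

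**Figure D1:**
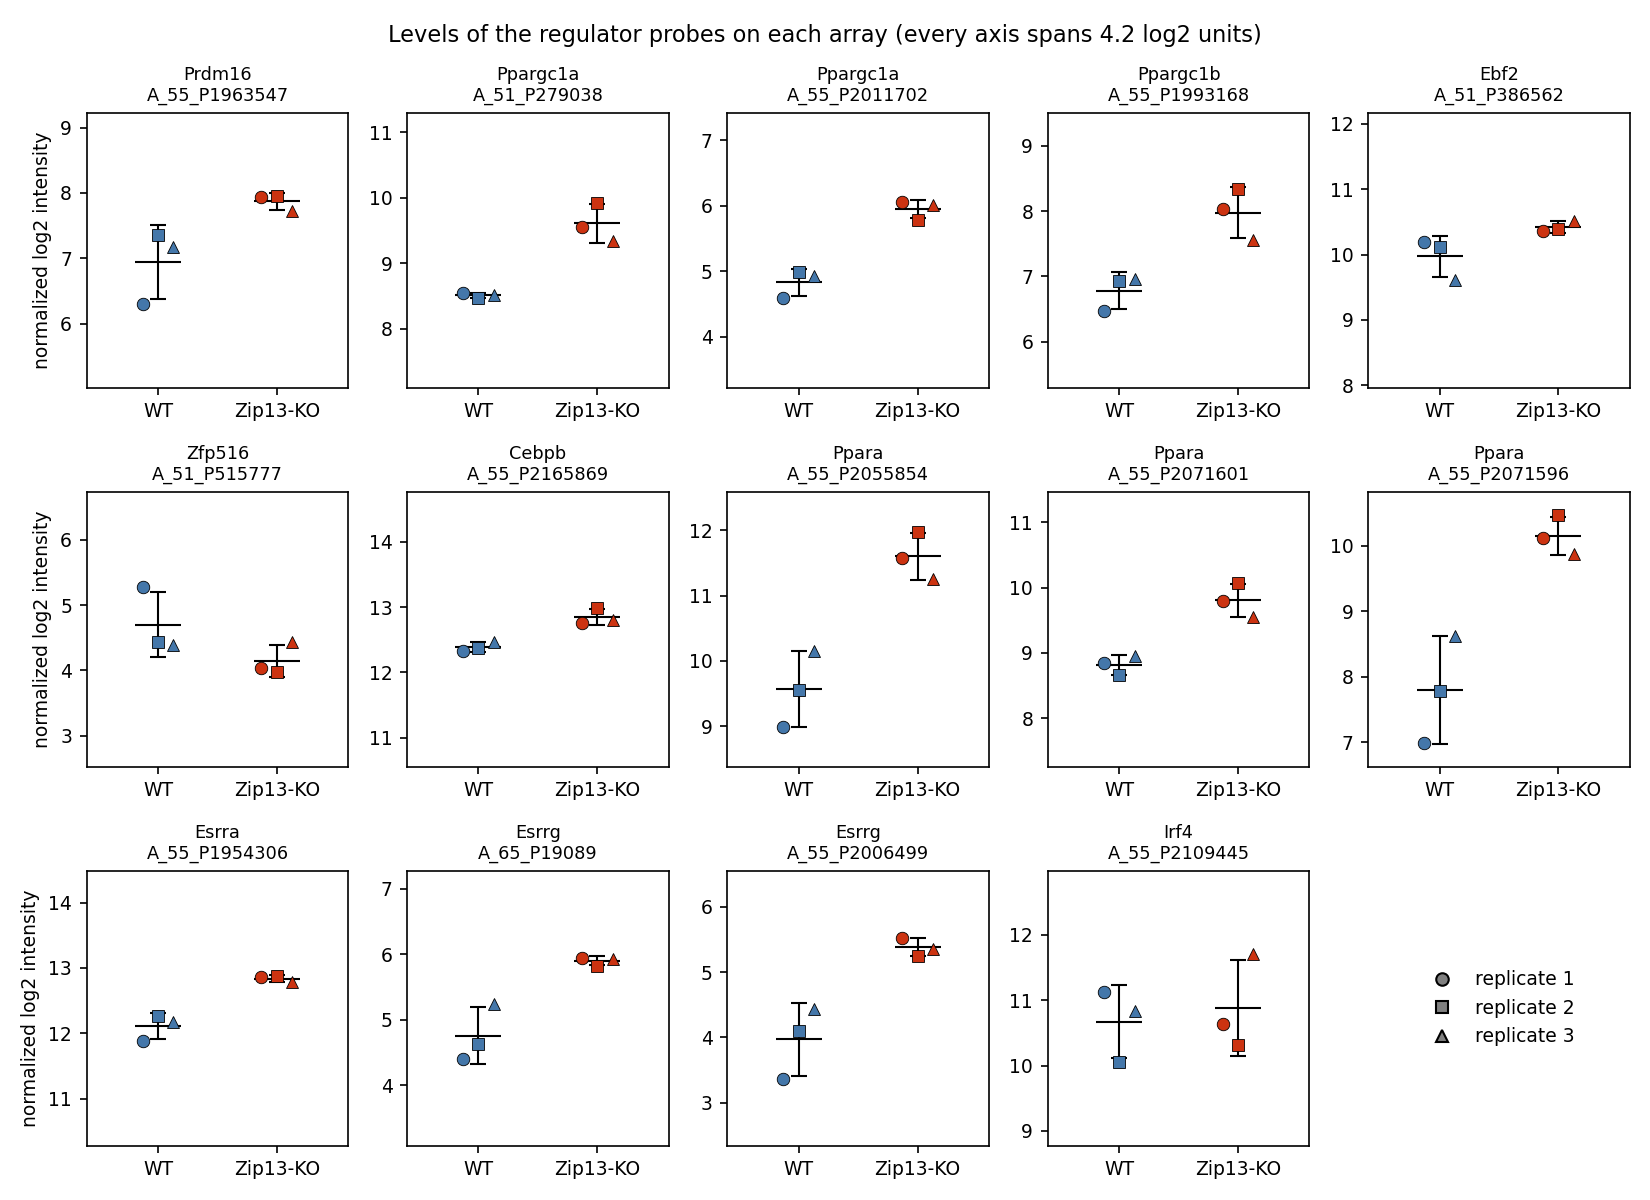
Normalized log2 intensity of each of the 14 regulator probes on the 3 WT (blue) and 3 Zip13-KO (red) arrays. Marker shapes give the replicate number, which is not taken to pair the arrays, and the bar and whiskers give the mean and SD. Every panel spans 4.2 log2 units, so distances can be compared between panels, and levels cannot be compared between probes. The genotypes overlap only for Zfp516 and Irf4.

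Ppargc1a encodes PGC-1alpha, the coactivator that couples cold and adrenergic signals to mitochondrial gene expression. Its probe A_51_P279038 read 8.55, 8.47 and 8.51 in WT and 9.56, 9.93 and 9.35 in Zip13-KO iWAT. Its other probe, A_55_P2011702, read 4.59, 4.98 and 4.92 in WT and 6.05, 5.78 and 6.01 in Zip13-KO iWAT. Every Zip13-KO array was above every WT array on both probes, and the WT values of the first probe were close together (SD 0.04, n = 3). The first probe rose 2.14-fold (log2 fold change 1.101, SE 0.15, limma adjusted p = 0.00969) and the second 2.17-fold (1.12, SE 0.14, adjusted p = 0.00858). These 2 had the smallest adjusted p of the 14 probes. The second probe was dim, and its log2 fold change was 0.51 with normexp correction and 0.61 in the deposited table, whose values carry no background subtraction.

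Ppargc1b encodes PGC-1beta, the close relative that drives mitochondrial biogenesis and is less tied to acute cold. Its probe A_55_P1993168 read 6.47, 6.93 and 6.96 in WT and 8.03, 8.33 and 7.56 in Zip13-KO iWAT. The lowest Zip13-KO array, replicate 3, was still above the highest WT array. It rose 2.28-fold (log2 fold change 1.19, SE 0.23, limma adjusted p = 0.0174). Without Zip13-KO replicate 1 the adjusted p was 0.0605 and without replicate 2 it was 0.0536.

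Ppara encodes PPAR-alpha, the fatty acid-sensing receptor that turns on fatty acid oxidation, and it had the largest changes among the 10 regulators. Probe A_55_P2071596 read 6.98, 7.78 and 8.62 in WT and 10.12, 10.47 and 9.88 in Zip13-KO iWAT. Probe A_55_P2055854 read 8.99, 9.56 and 10.16 in WT and 11.57, 11.98 and 11.25 in Zip13-KO iWAT. Both spread widely over the WT arrays, with replicate 1 lowest and replicate 3 highest, and neither genotype reached the other. Probe A_55_P2071601 read 8.85, 8.66 and 8.95 in WT and 9.79, 10.07 and 9.56 in Zip13-KO iWAT, a narrower spread and a smaller step. The probes rose 5.12-fold (log2 fold change 2.36, SE 0.41, adjusted p = 0.0136), 4.08-fold (2.03, SE 0.33, adjusted p = 0.0116) and 1.98-fold (0.99, SE 0.15, adjusted p = 0.0111) in that order, by limma. The call of A_55_P2071596 was lost without Zip13-KO replicate 1 (adjusted p = 0.0501) or replicate 2 (adjusted p = 0.0522), by limma.

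The 3 Ppara probes carry the same RefSeq transcript but did not rise by the same amount. Measured within each array, A_55_P2071596 rose more than A_55_P2071601 by 1.37 on the log2 scale, or 2.59-fold, and the difference was 1.34, 1.43 and 1.34 on the Zip13-KO arrays against -0.84, 0.15 and 0.70 on the WT arrays. A_55_P2055854 rose more than A_55_P2071601 by 1.04. The genotypes did not overlap in any of the 3 differences between Ppara probes, and each had an exact permutation p of 0.1, the smallest this design gives (0.167 adjusted over the 5 pairs of probes of a gene). The 2 Ppargc1a probes differed by 0.02 and the 2 Esrrg probes by 0.26, and in both pairs the genotypes overlapped. Where on the transcript each probe binds was not determined here.

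**Figure D2:**
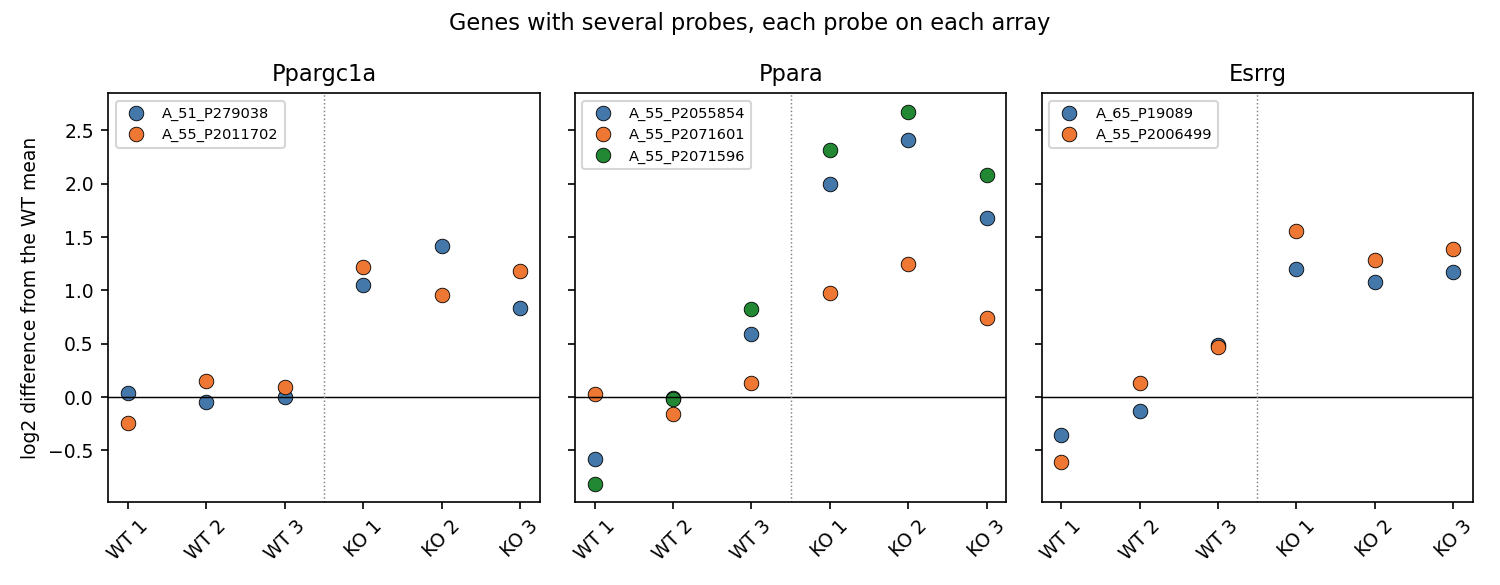
Difference of each probe's log2 intensity from its own WT mean, on each of the 6 arrays, for the 3 genes with several probes (KO stands for Zip13-KO). The Ppargc1a and Esrrg probes move by similar amounts, while the Ppara probe A_55_P2071601 rises by 0.99 and the other two by 2.03 and 2.36.

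Esrra encodes ERR-alpha, the receptor through which PGC-1 coactivators reach the genes of oxidative phosphorylation and the citric acid cycle. Its probe A_55_P1954306 read 11.89, 12.27 and 12.18 in WT and 12.86, 12.88 and 12.78 in Zip13-KO iWAT. The Zip13-KO arrays were nearly level (SD 0.05, n = 3) and all above the WT arrays. It rose 1.65-fold (log2 fold change 0.73, SE 0.12, limma adjusted p = 0.0120), the smallest of the called changes.

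Esrrg encodes ERR-gamma, a constitutively active relative of ERR-alpha that is abundant in oxidative tissues. Its probe A_65_P19089 read 4.40, 4.62 and 5.24 in WT and 5.95, 5.83 and 5.93 in Zip13-KO iWAT. Its probe A_55_P2006499 read 3.36, 4.10 and 4.44 in WT and 5.53, 5.25 and 5.36 in Zip13-KO iWAT. Both were dim, with Zip13-KO arrays close together and above every WT array. They rose 2.22-fold (log2 fold change 1.15, SE 0.22, limma adjusted p = 0.0161) and 2.66-fold (1.41, SE 0.27, adjusted p = 0.0171). With no background correction the log2 fold changes were 0.61 and 0.59, still called, and with normexp correction they were 0.51 and 0.41, under the fold threshold. Neither was called without Zip13-KO replicate 1 (adjusted p = 0.0573 and 0.0611) or replicate 2 (adjusted p = 0.0532 and 0.0536), by limma.

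Among the identity factors, Prdm16, which encodes the coregulator that separates brown from muscle and white fates, had the largest difference. Its probe A_55_P1963547 read 6.29, 7.36 and 7.18 in WT and 7.93, 7.95 and 7.73 in Zip13-KO iWAT. All Zip13-KO arrays were above all WT arrays, and WT replicate 1 lay apart below the other two. The log2 fold change was 0.93 (SE 0.28, 95% confidence interval 0.25 to 1.601) with a limma adjusted p of 0.0533, just outside the threshold. It was called in 9 of 24 alternative settings, among them the deposited table (0.76, adjusted p = 0.0290) and the fit without WT replicate 1 (0.61, adjusted p = 0.0280).

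Ebf2 encodes a factor of brown and beige preadipocytes that opens the sites used by PPAR-gamma. Its probe A_51_P386562 read 10.19, 10.12 and 9.61 in WT and 10.36, 10.39 and 10.52 in Zip13-KO iWAT. The groups were separated by a narrow margin. The log2 fold change was 0.45 (SE 0.17, 95% confidence interval 0.05 to 0.86, limma adjusted p = 0.0908), not called, and the interval leaves room for a 1.5-fold change. Without WT replicate 3 it was 0.27.

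Cebpb encodes C/EBP-beta, an early cAMP-responsive factor of fat differentiation that forms a complex with PRDM16. Its probe A_55_P2165869 read 12.33, 12.38 and 12.47 in WT and 12.76, 12.99 and 12.80 in Zip13-KO iWAT. Both groups were tight and they did not overlap. The difference was larger than the spread, at 1.37-fold (log2 fold change 0.46, SE 0.10, limma adjusted p = 0.0215), but was under the fold threshold and was therefore not called.

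Zfp516 encodes a cold-induced zinc finger protein that binds near Ucp1, and it was the 1 regulator whose mean was lower in Zip13-KO iWAT. Its probe A_51_P515777 read 5.28, 4.43 and 4.40 in WT and 4.03, 3.98 and 4.43 in Zip13-KO iWAT. The groups overlapped, since Zip13-KO replicate 3 lay above WT replicate 3, and it equalled WT replicate 2 at 2 decimals. The log2 fold change was -0.55 (SE 0.27, 95% confidence interval -1.20 to 0.09, limma adjusted p = 0.165), and it was -0.13 with normexp correction and -0.27 without WT replicate 1.

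Irf4 is also a gene of B and plasma cells, and its probe A_55_P2109445 varied most within a genotype in Zip13-KO iWAT. It read 11.13, 10.05 and 10.83 in WT and 10.63, 10.31 and 11.70 in Zip13-KO iWAT. The groups overlapped in part, with Zip13-KO replicate 3 above all WT arrays and WT replicate 2 below all Zip13-KO arrays. The log2 fold change was 0.21 (SE 0.43, 95% confidence interval -0.83 to 1.25, limma adjusted p = 0.738), an interval that includes both a fall and a rise of 1.5-fold. It turned negative without WT replicate 2 (-0.10) or without Zip13-KO replicate 3 (-0.20), with the slide column as a term (-0.040) and for the ratio of medians (-0.21). The summed level of the 9 B and plasma cell markers, on the linear scale, was 46662 to 56923 in WT and 35693 to 38767 in Zip13-KO iWAT, and 1 of them (Pax5) was called lower. Their part in the Irf4 result was not tested.

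**Figure D3:**
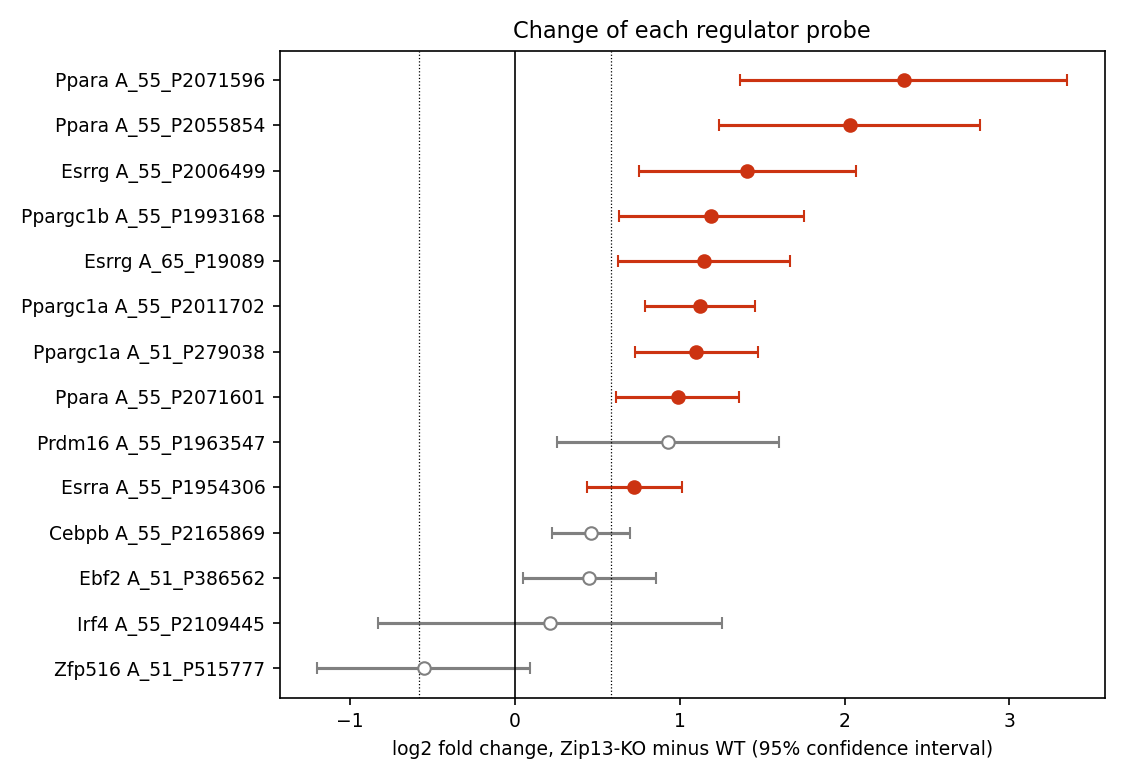
Log2 fold change (Zip13-KO minus WT) of the 14 regulator probes with the 95% confidence interval of the limma fit, sorted by size. Filled red points were called, open grey points were not, and dotted lines mark a change of 0.58 in either direction. The Ppara probes A_55_P2071596 (2.36) and A_55_P2055854 (2.03) head the order, and the intervals of neighbouring probes overlap along the whole order.

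The promoters of 7 of the 10 genes were at hand as 300-base windows, from 250 bases before to 50 after a start site (RefSeq, GRCm38.p6, with 4 starts for Esrrg). They are shown for 3 genes that rose, Ppargc1a, Ppara and Esrra, and for Cebpb, which was not called. Capitals mark TGACG, the core of the cAMP response element, on either strand (CGTCA when on the other strand).
Ppargc1a, chr5:51567676-51567975, minus strand: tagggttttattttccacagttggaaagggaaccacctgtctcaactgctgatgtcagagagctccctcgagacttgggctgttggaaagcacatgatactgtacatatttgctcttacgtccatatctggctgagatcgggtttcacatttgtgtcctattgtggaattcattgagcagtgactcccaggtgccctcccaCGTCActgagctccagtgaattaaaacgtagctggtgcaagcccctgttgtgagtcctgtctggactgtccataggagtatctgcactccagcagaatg
Ppara, chr15:85735526-85735825, plus strand: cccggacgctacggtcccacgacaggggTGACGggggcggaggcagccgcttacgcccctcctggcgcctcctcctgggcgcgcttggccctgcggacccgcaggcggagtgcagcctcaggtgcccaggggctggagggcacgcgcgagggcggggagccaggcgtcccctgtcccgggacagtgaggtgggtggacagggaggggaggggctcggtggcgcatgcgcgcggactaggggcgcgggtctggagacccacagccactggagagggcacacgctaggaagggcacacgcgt
Esrra, chr19:6921759-6922058, minus strand: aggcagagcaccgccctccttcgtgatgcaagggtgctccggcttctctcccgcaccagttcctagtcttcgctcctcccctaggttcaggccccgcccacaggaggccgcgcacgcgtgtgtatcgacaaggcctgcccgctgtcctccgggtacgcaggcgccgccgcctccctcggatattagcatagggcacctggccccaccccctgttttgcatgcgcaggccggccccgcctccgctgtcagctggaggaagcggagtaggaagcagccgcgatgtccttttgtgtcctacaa
Cebpb, chr2:167688665-167688964, plus strand: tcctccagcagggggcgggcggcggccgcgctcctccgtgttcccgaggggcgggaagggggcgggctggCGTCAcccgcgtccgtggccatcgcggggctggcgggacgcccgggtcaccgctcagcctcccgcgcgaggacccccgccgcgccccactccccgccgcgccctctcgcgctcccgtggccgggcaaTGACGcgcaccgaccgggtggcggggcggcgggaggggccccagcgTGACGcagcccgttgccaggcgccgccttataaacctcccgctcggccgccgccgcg
The Cebpb window held TGACG at 3 places, 180, 53 and 7 bases before the start. The Ppargc1a window held it 49 bases before the start and the Ppara window 222 bases before it, and the Esrra window did not hold it. TGACG was in 3 of the 10 windows of the regulators, all 3 of them shown here, and in 20.8% of the 32851 promoters of the table. The Prdm16, Irf4 and Esrrg windows, which are not shown, did not hold it. The full response element TGACGTCA (1.79% of promoters), the ERR element TNAAGGTCA (1.28%) and the nuclear receptor core AGGTCA (16.3%, which the ERR element contains) were in none of the 10 windows of these genes. The C/EBP site TTNNGCAA (10.8%) was in 1 of the Esrrg windows, 130 bases before that start. Both strands were searched for each motif.

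The order of the arrays within a genotype was shared by some called probes and not by others. Probes of 1 gene are counted separately here, and the same counts over all probes were not computed. WT replicate 1 was the lowest WT array for 7 of the 9 called probes, and WT replicate 3 the highest for 6. Zip13-KO replicate 2 was the highest Zip13-KO array for 6 of the 9 and replicate 3 the lowest for 6. On the Ppargc1a probes, Zip13-KO replicate 2 was the highest for A_51_P279038 (9.93) and the lowest for A_55_P2011702 (5.78). WT replicate 1 was likewise the highest WT array on the first (8.55) and the lowest on the second (4.59). Both Esrrg probes had Zip13-KO replicate 2 lowest. The median deviation from the WT mean over the 9 probes was -0.32, -0.01 and 0.18 on the WT arrays and 1.22, 1.28 and 1.17 on the Zip13-KO arrays, on the log2 scale.

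Markers of several cell types also differed between the genotypes, and in a piece of tissue fewer cells of a type and less RNA per cell cannot be told apart. The 9 adipocyte markers summed to 566410 to 701076 in WT and 812044 to 835525 in Zip13-KO iWAT (linear scale), with 2 of 9 called higher (Pck1 and Lipe), none lower and a median log2 fold change of 0.58. WT replicate 1 had the lowest adipocyte sum. The 10 macrophage markers summed to 72719 to 115315 in WT and 36039 to 44611 in Zip13-KO iWAT, with 8 of 10 called lower and none at background. The 8 markers of stromal progenitors and fibroblasts summed to 220221 to 474523 in WT and 194019 to 231158 in Zip13-KO iWAT, with Thy1 and Dpp4 called lower. The 10 skeletal muscle markers come from a tissue that also uses Ppargc1a, Ppara and Esrrg. They summed to 2016 to 4508 in WT and 2661 to 9680 in Zip13-KO iWAT. The highest sum was that of Zip13-KO replicate 3. Of the 10, 9 were above background on all arrays and were tested. None of these was called, although their median log2 fold change was 0.87, and their values spread widely between arrays. Myh1, a defining muscle gene, was above background on 1 WT and 2 Zip13-KO arrays and was not tested. The part of these markers' cell types in the regulators' values was not tested.

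The regulators were therefore also set against the adipocyte markers, a comparison chosen after seeing the data. With each array taken relative to the mean of its 9 adipocyte markers, every log2 fold change is lower by 0.565, the rise of the marker mean, so that the median of all probes was -0.589, 1.09% of all probes were called higher and 33.8% lower. The probes Ppara A_55_P2071596 (1.79, adjusted p = 0.000189), Ppara A_55_P2055854 (1.46, adjusted p = 0.000977) and Esrrg A_55_P2006499 (0.84, adjusted p = 0.0247) were still called higher, by limma. The other 6 called probes kept a positive value, from 0.16 for Esrra to 0.63 for Ppargc1b, and were not called. Cebpb (-0.11), Ebf2 (-0.11) and Irf4 (-0.35) turned negative without being called, and Zfp516 was called lower (-1.12, limma adjusted p = 0.0172).

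**Figure D4:**
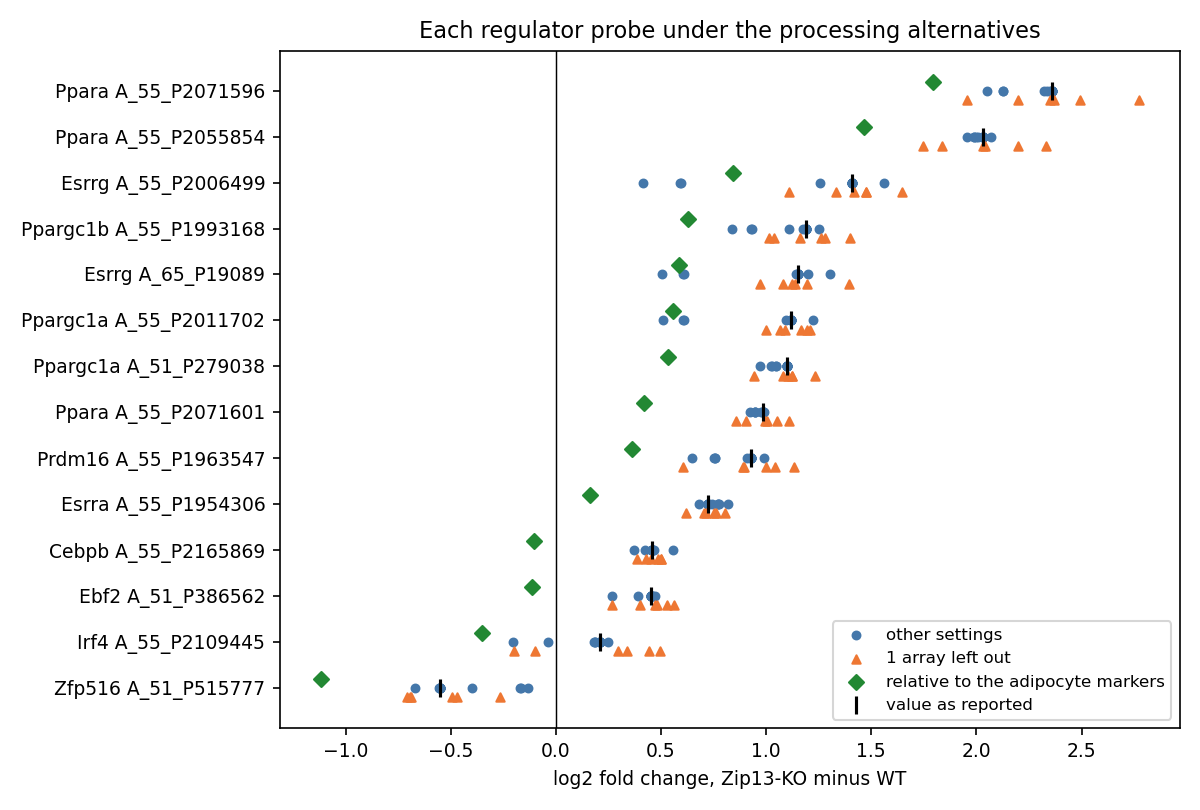
Log2 fold change of each of the 14 regulator probes as reported (black bar), with 1 array left out (triangles), relative to the adipocyte markers (diamonds) and under the other settings (circles). The 9 called probes and Prdm16 stay above 0 in every setting shown. Relative to the adipocyte markers every probe is lower by 0.57, the rise of the marker mean, and Cebpb, Ebf2 and Irf4 are below 0.

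Of 36 partners and co-regulators of PRDM16 and the PGC-1 coactivators, all tested, 6 (16.7%) were called higher and none lower, and their median log2 fold change was 0.14, where 10% of the 15302 genes tested were called higher, 7.94% lower and the median was 0.00 at 2 decimals. The 6 were Pparg, the master factor of fat cells (1.13, adjusted p = 0.0178), the factor gene Ebf3 (0.99, adjusted p = 0.00728), Cebpa (0.82, adjusted p = 0.0337), the mitochondrial deacetylase Sirt3 (0.81, adjusted p = 0.00916), the mitochondrial transcription factor Tfb2m (0.76, adjusted p = 0.00900) and Esrrb (0.65, adjusted p = 0.0445), all by limma. The largest value belonged to Perm1, a PGC-1-induced muscle gene, at 1.42 with an adjusted p of 0.0767 by limma, and it was not called. It was above background on 2 of the 3 WT arrays and passed the filter through Zip13-KO iWAT alone, as Mecom did through WT iWAT (0.39, not called). The lowest values were those of the coactivator gene Ncoa3 (-0.45, adjusted p = 0.0130), the DNA-binding factor gene Nrf1 (-0.26, adjusted p = 0.0681) and the histone demethylase gene Kdm1a (-0.26, adjusted p = 0.0700), by limma, and none passed the fold threshold. Relative to the adipocyte markers none of the 36 was called higher, where 1.09% of all probes were.

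Of 21 repressors of the brown fat program, 18 were tested, and their median was -0.01. Zfp423, which holds white fat cells in the white state (0.68, adjusted p = 0.00987), and Hoxc10 (0.60, adjusted p = 0.0105) were called higher, and the forkhead repressor Foxp1 was called lower (-0.71, adjusted p = 0.0115), all by limma. Hoxc8 stood at 0.58 with an adjusted p of 0.0893, Zfp521 at -0.45 with 0.258 and Trim28 at -0.32 with 0.0477, none called by limma. Without WT replicate 1 or Zip13-KO replicate 1, 1 of the 18 was called higher in place of 2. The share of all probes called higher was 6.25% and 4.12% in those fits, beside 8.34% with all arrays. The share called higher, 11.1%, was near the 10% of all genes.

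Of 32 upstream and lineage regulators, 29 were tested, with a median of 0.11. Of the 29, 5 (17.2%) were called higher and 1 (3.45%), Plac8, was called lower. The shares of all genes tested were 10% higher and 7.94% lower. Among the called genes were the receptor gene Adrb1 (1.58, adjusted p = 0.0405), the cAMP-induced Nr4a1 (1.25, adjusted p = 0.0150), the fasting-linked factor Klf15 (1.07, adjusted p = 0.0222) and Irx3 (0.64, adjusted p = 0.0106), by limma. Adrb3, the main adrenergic receptor of mouse fat, read 13.002, 14.42 and 14.11 in WT and 14.98, 14.64 and 14.90 in Zip13-KO iWAT, with no overlap and an adjusted p of 0.0869 by limma. Plac8 fell by 1.90 (adjusted p = 0.0103), Egr2 stood at -0.68 (adjusted p = 0.324) and Zbtb16 at -0.34 (adjusted p = 0.314), by limma. The classical brown fat markers Zic1 and Lhx8 were not called (0.29 and 0.30). The count of 5 was 3 without Zip13-KO replicate 1 or replicate 2, where the share of all probes called higher went from 8.34% to 4.12%.

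Most genes of heat production that lie under these regulators passed the test. Of 26 listed symbols of thermogenic genes, 25 matched a gene on the array and 21 were tested. Of the 21, 18 (85.7%) were called higher and none lower, with a median of 1.78. Of all genes tested, 10% were called higher and 7.94% lower. Ucp1, the uncoupling protein itself, read 10.68, 8.20 and 9.42 in WT and 13.19, 15.50 and 15.07 in Zip13-KO iWAT, a log2 fold change of 5.16 (SE 0.81, limma adjusted p = 0.0112). Elovl3 (4.84, adjusted p = 0.0102), a fatty acid elongase, and Fabp3 (4.77, adjusted p = 0.0197), a fatty acid binding protein, followed by limma. Elovl3 was above background on 2 of the 3 WT arrays and was tested only because it passed the filter in Zip13-KO iWAT, where it was high, so its fold rests in part on a WT signal near background; the other 20 tested genes were above background on all arrays, and 17 of them were called higher. S100b (0.84), Atp2a2 (0.38) and Ckmt1 (0.26) had the smallest values and were not called. Relative to the adipocyte markers 16 of the 21 were called higher, where 1.09% of all probes were. These genes were chosen with knowledge of this tissue, and the count is no independent evidence of its direction.

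Of 30 PPAR-alpha target genes 28 were tested, 16 (57.1%) were called higher and 1 (3.57%) lower, with a median of 1.002. Among all genes tested 10% were called higher and 7.94% lower. Fabp3, Cpt1b (3.56, adjusted p = 0.00699), the muscle-type carnitine palmitoyltransferase, and Plin5 (2.26, adjusted p = 0.0102), a lipid droplet protein, were highest by limma. Creb3l3 (-0.72, adjusted p = 0.452) and Angptl4 (-0.05) were low and not called, while Cpt1a, the liver-type isoform of Cpt1b, was called lower (-0.71, limma adjusted p = 0.0269). Its call was lost on leaving out any 1 of WT replicate 1 and the 3 Zip13-KO arrays. Members such as Fabp1 (0.27) and Cyp4a10 (0.29), best known from the liver, were not called. Relative to the adipocyte markers 6 of the 28 were called higher, where 1.09% of all probes were.

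Of 29 listed symbols of ERR target genes, 28 matched a gene on the array, and all 28 were tested. Of these, 23 (82.1%) were called higher and none lower, with a median of 0.84. Among all genes tested 10% were called higher and 7.94% lower. Perm1 and Idh3a (1.31, adjusted p = 0.0155), the latter of the citric acid cycle, were among the highest values by limma. The lowest were Slc25a4 (0.26), Gabpa (0.29) and Cox6a1 (0.48), none called. The Cox6a1 probe was the brightest but 1 on all 3 Zip13-KO arrays, where quantile normalization gives it nearly the same value by its rank, and with 75th percentile scaling it was called (0.70, limma adjusted p = 0.00755). All 28 values lay between 0.26 and 1.42, or up to 1.31 without Perm1, which passed the filter through Zip13-KO iWAT alone, a narrow range beside that of the PPAR-alpha targets, which ran from -0.72 to 4.77. Relative to the adipocyte markers 2 of the 28 were called higher, where 1.09% of all probes were. Several genes stand in more than 1 list, Fabp3, Cpt1b, Acadm, Pdk4 and Perm1 among them, so the lists are not independent. With the slide column as a term of the fit, which leaves 1 Zip13-KO array in the contrast, no gene of any of the 6 lists was called higher by limma, where 0.0121% of all probes were. The medians in that fit were 1.92 for the thermogenic genes, 0.86 for the PPAR-alpha targets, 0.81 for the ERR targets, 0.14 for the partners, 0.20 for the upstream regulators and 0.02 for the repressors.

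**Figure D5:**
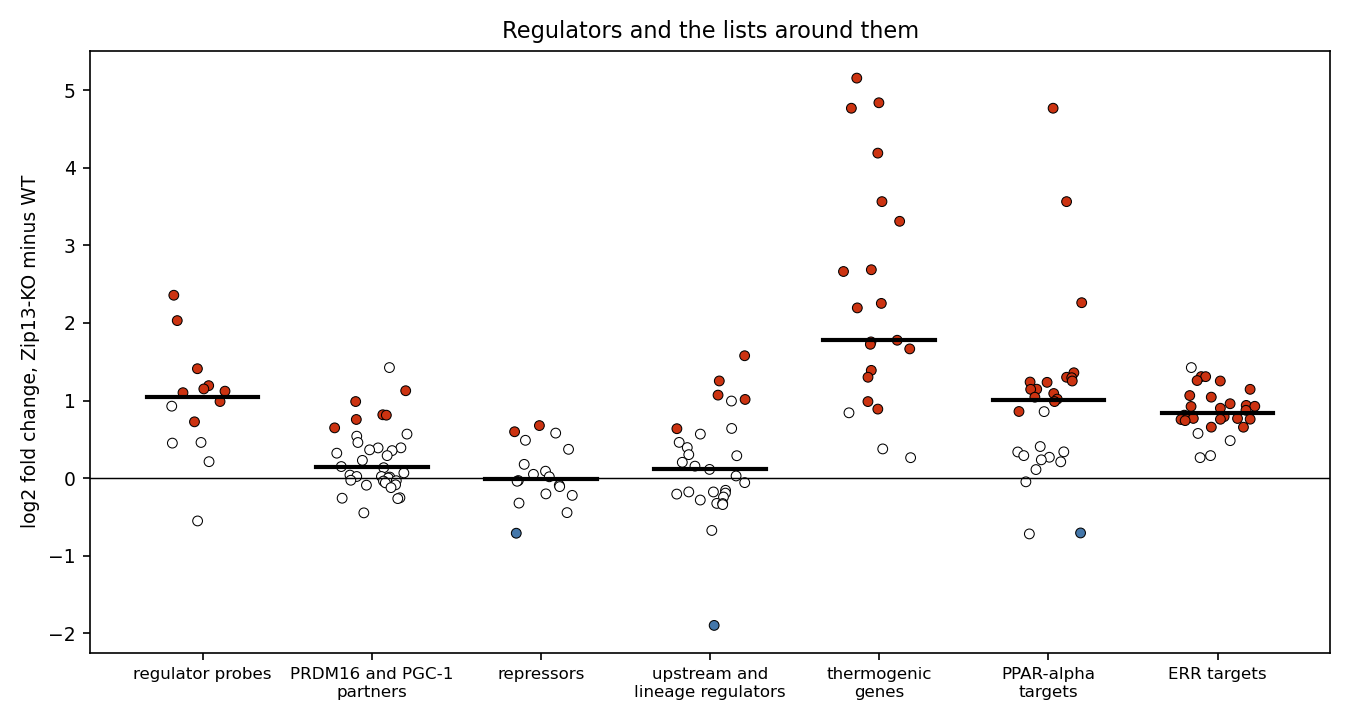
Log2 fold change (Zip13-KO minus WT) of the 14 regulator probes and of the tested genes of 6 lists, 1 point per probe or gene, with the horizontal spread drawn only for legibility. Red points were called higher, blue lower, open points not called, and the black bar is the median. The medians of the partners (0.14), repressors (-0.01) and upstream regulators (0.11) lie near 0, and those of the regulator probes (1.04) and of the thermogenic (1.78), PPAR-alpha (1.002) and ERR (0.84) targets above it.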

How the data were processed

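The iWAT RNA of 3 WT and 3 Zip13-KO samples was hybridized to the Agilent mouse array SurePrint G3 GE 8x60K. The scanner files of the authors (Feature Extraction 11.5.1.1) hold the intensity of each spot: a processed signal, already background-subtracted and not normalized between arrays, and the raw median signal. The table that the authors deposited holds log2 values of the median signal, without background subtraction and quantile normalized, as set against the scanner files (rank correlation 1 on every array). Local background had a median of 31 to 39.5 intensity units and 58.8% to 63.2% of spots were well above it; no spot was saturated, and the number of arrays limits the precision.

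Control and outlier spots were dropped, log2 of the processed signal was averaged per probe and quantile normalized, and probes well above background on all 3 arrays of a genotype were kept (33041 of 55681). Probes were named by unversioned RefSeq accession (28331 named). Lists use the brightest kept probe of a gene. Genotypes were compared with limma 3.58.1 in R 4.3.3, with Benjamini-Hochberg adjustment over all kept probes; the thresholds are those of the study's methods. The fit was tested on simulated data. Named genes are all probes of the 10 regulators, Slc39a13, the 3 highest and 3 lowest of each list, and genes behind counts of 5 or fewer. Other genes named from lists and markers were chosen after their values were seen. The 10 regulators, the lists and the markers were chosen with earlier results of these data known. Of the marker lists not described with a result, neutrophil markers had 4 of 5 called lower, T cell and dendritic cell markers 1 of 8 lower, mammary epithelium none of 4 and endothelium 1 of 6 higher.

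Alternatives for the values were 75th percentile scaling, normexp (offset 50), no background correction and the deposited table. Normexp and no correction used the median signal, since the files hold no mean signal. There were 3 other filters (none, all 6 arrays, a mixture of 2 Gaussian components), and 1 probe or the mean of probes per gene. Further alternatives were a fold change from medians, an ordinary t-test with and without adjustment, and an intensity trend with robust prior. The last were the replicate number as a block, the slide column, other thresholds and each array left out. The study's own test combined a t-test with a median-ratio test, and that combination was not run here. The promoters of Ppargc1b, Zfp516 and Ebf2 were not analysed here. Some list genes are counted but not reported by name here.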

Additional observations from a re-analysis of the deposited data

How the results depend on the processing

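The 9 regulator probes called higher became 5 with an ordinary t-test, adjusted, and 2 at an adjusted p under 0.01. They became 3 relative to the adipocyte markers, with 1 called lower. With 1 array left out they ranged from 5 to 10, and those called lower stayed at 0. The 5 genes with a called probe became 3, 1 and 2 under the same 3 settings, and 3 to 6 with 1 array left out. The share of all probes called higher was 4.71%, 2.18% and 1.09% in those 3 settings, beside 8.34% as reported. With the slide column as a term, which leaves 1 Zip13-KO array in the contrast, the log2 fold changes of the 9 probes ran from 0.74 to 2.32. Over all settings, the fold changes of the 14 probes kept direction and call in 269 comparisons, lost the call in 38, gained it in 11 and reversed in 7. A probe not called as reported counts among the 269 when it stayed uncalled. Settings that change only the test, the threshold, the filter or the replicate block leave the fold change itself as it was. Direction could not reverse in those settings, so the 269 do not measure its stability. The reversed values were Irf4 for the ratio of medians (-0.21), with the slide column (-0.040), without WT replicate 2 (-0.10), without Zip13-KO replicate 3 (-0.20; the highest such value was 0.50, without Zip13-KO replicate 2) and relative to the adipocyte markers (-0.35), and Ebf2 (-0.11) and Cebpb (-0.11) relative to the adipocyte markers. The cause was not tested, except that the last setting lowers every probe by its own construction and the slide column leaves 1 Zip13-KO array for the contrast.

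Over all probes, 2757 were called higher and 2356 lower. The counts were 1828 and 1345 with normexp, 1562 lower without background correction, 1554 lower in the deposited table, 1576 and 1282 with 1 probe per gene, 1534 and 1287 for the mean of probes (fewer features tested), 1557 and 1086 with the adjusted t-test, 4 and 31 with the slide column, 4688 and 4179 with no fold threshold, 720 and 561 at an adjusted p under 0.01, and 361 and 11184 relative to the adipocyte markers. With 1 array left out they ran from 1365 to 2715 higher and 1113 to 2404 lower, with the fewest without Zip13-KO replicate 1 (1365 and 1113) or replicate 2 (1367 and 1150). With the replicate number as a block, 1738 were higher and 1507 lower, 3 upstream regulators were called, and of the regulator probes Esrrg A_55_P2006499 lost its call (limma adjusted p = 0.0510). Same-numbered arrays did not deviate together (correlations -0.04, 0.00 and -0.03), beside -0.14 to 0.14 for arrays of different number. With 3 arrays per genotype these values cannot exclude a pairing, and the labels state none.

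For the lists, the counts called higher are given below, and the share of all probes called higher moved too. It was 8.34% as reported, 4.71% with the adjusted t-test, 2.18% at an adjusted p under 0.01 and 14.2% with no fold threshold. It was 5.53% with normexp, 6.23% without background correction, 6.21% in the deposited table and 3.63% with no filter. For the mean of probes it was 10%, for the ratio of medians 7.91% and relative to the adipocyte markers 1.09%. With 1 array left out it ran from 4.12% (without Zip13-KO replicate 1 or 2) to 8.11%. Partners, 6: 3 with the adjusted t-test, 3 at an adjusted p under 0.01, 0 with the slide column, 0 relative to the adipocyte markers, 4 to 7 with 1 array left out. Repressors, 2: 1 with normexp, without background correction, in the deposited table, for the mean of probes, for the ratio of medians and at an adjusted p under 0.01, 4 with no fold threshold, 0 with the slide column and relative to the adipocyte markers, 1 to 2 with 1 array left out. Upstream regulators, 5: 3 with no filter, 2 with the adjusted t-test, 1 at an adjusted p under 0.01, 0 with the slide column, 1 relative to the adipocyte markers, 3 to 5 with 1 array left out. Thermogenic genes, 18: 0 with the slide column, 14 to 18 with 1 array left out. PPAR-alpha targets, 16: 10 at an adjusted p under 0.01, 0 with the slide column, 6 relative to the adipocyte markers, 13 to 16 with 1 array left out. ERR targets, 23: 12 at an adjusted p under 0.01, 0 with the slide column, 2 relative to the adipocyte markers, 17 to 24 with 1 array left out. Blocking by slide or scan was not possible, since the arrays shared both. Signal over background limits the size of the change on the dim Esrrg, Zfp516 and second Ppargc1a probes.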
